A study of Mus musculus with 6 samples.

Results

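The transcripts of the MYC network were followed in LSK cells, the fraction of bone marrow that lacks lineage markers, carries Sca-1 and c-Kit and holds the hematopoietic stem and progenitor cells. The set was chosen by gene name from the deposited table and comprised 10 of 55487 genes. They were the 3 MYC family genes (Myc, Mycn and Mycl), their obligate partner Max, the MAX-binding repressors Mxd1, Mxd4, Mnt and Mga, and the ubiquitin ligase subunits Fbxw7 and Skp2. RNA sequencing had been carried out on 3 Tespa1+/+ (wild-type littermate, per the labels) and 3 Tespa1-/- samples, and the question was how loss of Tespa1 altered expression in these cells after irradiation. Per the study's methods, all mice were males of 8 to 10 weeks on a C57BL/6 background, had received 5 Gy of total body irradiation and were sampled at day 13. Tespa1-/- mice carried the Tespa1 allele tm1Smoc, and no other allele or agent was named for either group. The sources do not say if 1 mouse or several gave each replicate, so the p-values measure only the spread between these samples, which may be technical.

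MYC proteins bind DNA as dimers with MAX and activate genes for ribosome production, metabolism and division. MXD proteins, MNT and MGA compete for the same MAX and the same DNA element, the E-box, and repress. MYC protein is short-lived because ubiquitin ligases such as FBXW7 and SKP2 mark it for the proteasome. The study describes the role of MYC in hematopoietic stem cells as debated, since it has been tied both to proliferation and to quiescence. Transcript levels are reported here and say nothing of how much protein was present.

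Total counts ranged from 12856630 to 30576981 per library. Tespa1 itself fell from 34.4 ± 1.62 to 14.6 ± 0.634 CPM (SD, n = 3 per group; edgeR adjusted p = 7.0e-06) but was not absent. Kit and Ly6a, which encode c-Kit and Sca-1, were present in both groups, Kit at 332.7 ± 9.79 and 169.6 ± 6.13 CPM and Ly6a at 50.5 ± 11.6 and 40.4 ± 3.36 CPM, the latter not past the test. Of the 9 stem and progenitor markers 8 fell, and their summed level was 1182 to 1209 CPM in Tespa1+/+ and 640 to 659 CPM in Tespa1-/- libraries. All 5 primary granule genes rose (10907 to 11637 against 17958 to 18774 CPM summed), as did 10 of 11 tested neutrophil genes (27.0 to 30.02 against 495 to 523 CPM). Of all genes tested 31.8% fell and 31.5% rose. The part of these markers in the results below was not tested, and in bulk samples fewer cells of a type and less RNA per cell cannot be told apart.

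Of the 10 genes, 9 passed the filter on low counts. Between the groups 6 of them fell (Mycn, Mycl, Mxd1, Mnt, Mga and Fbxw7), against 31.8% of all 15332 genes tested, and only Max rose, against 31.5%. Here a gene rose or fell at an adjusted p under 0.05 from the quasi-likelihood F-test of edgeR with Benjamini-Hochberg adjustment over all genes tested, and was called if the fold also exceeded 1.5. Called lower were 4 genes (Mycn, Mycl, Mnt and Mga), against 19.2% of all genes, and called higher were 0, against 14.0%; the largest rise was 1.17-fold, so that 0 also exceeded the fold cutoff at an unadjusted p under 0.05 or with DESeq2. For 7 of the genes each Tespa1-/- value was below each Tespa1+/+ value (34.6% of all genes), and for 1 each was above (34.5%). The median log2 fold change was -0.50, and that of all genes was -0.00.

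**Figure D1:**
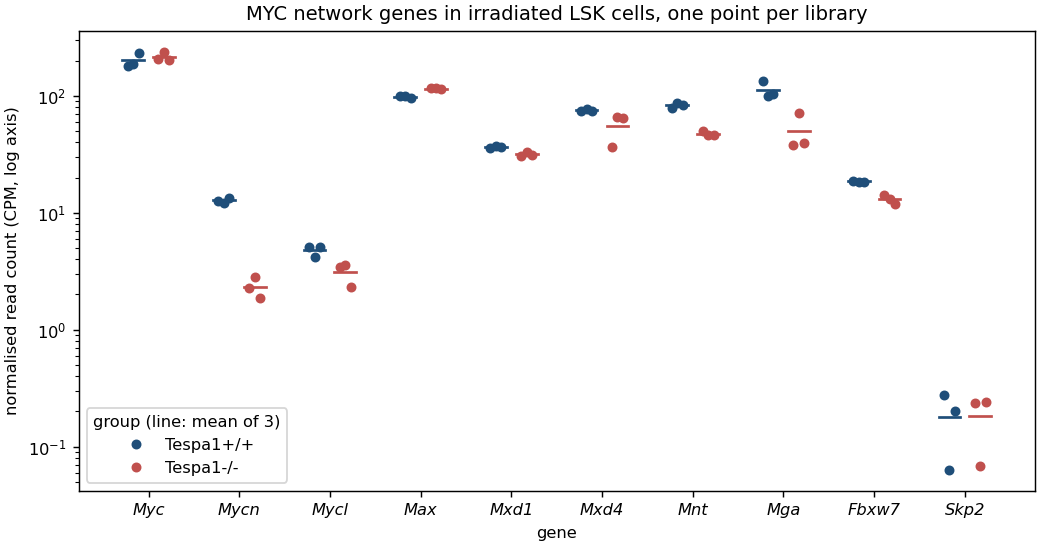
Normalised read count (CPM, log axis) of the 10 genes in each of the 3 Tespa1+/+ and 3 Tespa1-/- libraries, with points for libraries and lines for the group means. The groups lie far apart for Mycn and overlap for Myc, and Skp2 sits at 1 to 5 counts per library.

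Gene length moved with the comparison throughout the data. Over 10025 genes with a mean log2 CPM above 3, the log2 fold change and the union exon length had a Spearman rho of -0.62 (across genes, which are not replicates, and given as a description). Among the shortest 10% of these genes the median change was 0.64 on the log2 scale, and among the longest 10% it was -0.55. Changes of the 9 genes below are therefore also given after a length correction, in which a smooth curve over length was subtracted in each library (rho -0.09 afterwards). With it, 3 of the 9 genes fell (Mycn, Mycl and Mnt), against 26.7% of the 15314 genes with a length, and 1 rose (Max), against 29.8%. Of these only Mycn and Mnt were called, both lower, where 2344 of the 15314 genes were called lower. The median of the 9 genes was -0.20 against 0.02 for all genes. The cause of the relation with length was not tested.

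**Figure D2:**
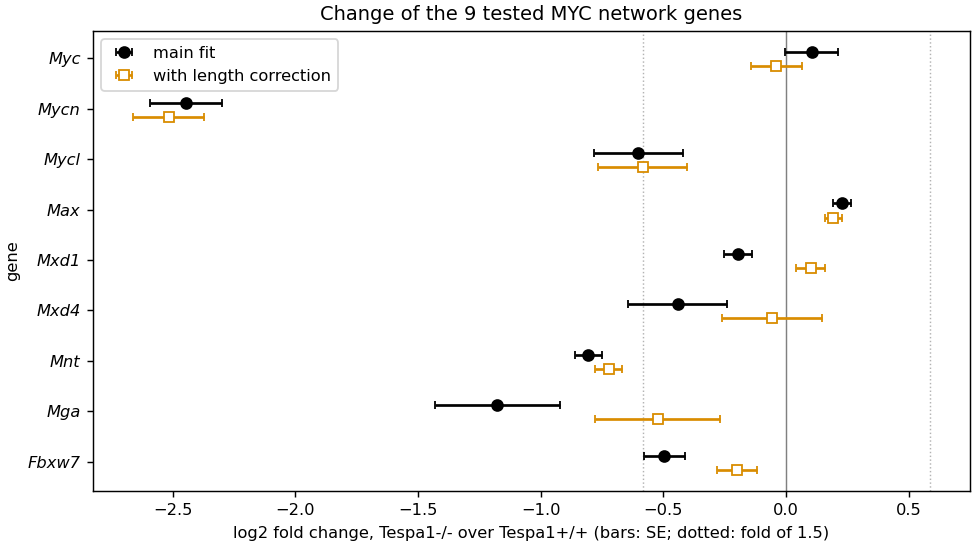
Log2 fold change of the 9 tested genes, Tespa1-/- over Tespa1+/+, with bars for the standard error; filled circles are without and open squares with the length correction, and dotted lines mark a fold of 1.5. Mycn and Mnt keep their position under the correction, whereas Mga, Mxd4, Mxd1 and Fbxw7 move towards or past 0.

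Mycn, the MYC family gene associated with early progenitors (ENSMUSG00000037169, chr12:12936093-12941914, minus strand, GRCm38), showed the largest change of the set. It had 231, 385 and 199 counts in Tespa1+/+ and 39, 41 and 23 in Tespa1-/- libraries, or 12.7, 12.2 and 13.4 against 2.29, 2.82 and 1.85 CPM. The groups lay far apart. The mean fell from 12.8 ± 0.618 to 2.32 ± 0.486 CPM, a 5.45-fold decrease (log2 fold change -2.45 with an SE of 0.15; edgeR adjusted p = 9.7e-06). The decrease was as large with the length correction (-2.52) and passed the test under each of 18 alternative settings, with values from -2.60 to -1.23.

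Myc, the founding member (ENSMUSG00000022346, chr15:61985391-61990374, plus strand), showed no such separation of the groups. Its levels were 180.5, 186.4 and 233.8 CPM in Tespa1+/+ and 206.5, 236.1 and 202.3 CPM in Tespa1-/- libraries. The ranges overlapped, and the means were 200.2 ± 29.2 and 215 ± 18.4 CPM (log2 fold change 0.10, SE 0.11, edgeR adjusted p = 0.427). Tespa1+/+ replicate 3 stood above its group, and the range among Tespa1+/+ libraries, 0.37 on the log2 scale, was at the 91.8th percentile of 9699 genes with at least 100 counts in every library, whose median range was 0.12. Without that library Myc was higher in Tespa1-/- cells by 0.24 (adjusted p = 0.0308; 0.0308 to 1.0 over the alternatives), and with the length correction the difference was -0.04.

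Genes whose profile over the 6 libraries was closest to that of Myc, by the mean absolute difference of centred log2 CPM among 10032 candidates, were Nmral1 (0.02), Pkmyt1 (0.04) and E4f1 (0.05). All 3 had their highest Tespa1+/+ value in replicate 3 and their highest Tespa1-/- value in replicate 2, as Myc did. None of them passed the test. Both traits go with their choice by likeness to Myc and are not separate findings. No more than likeness over 6 libraries is implied.

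Mycl, the third family gene (ENSMUSG00000028654, chr4:122995652-123002485, plus strand), was low, with 93, 132 and 76 counts in Tespa1+/+ and 58, 52 and 29 in Tespa1-/- libraries. In CPM these were 5.12, 4.18 and 5.13 against 3.41, 3.58 and 2.34, so the groups did not overlap. It fell 1.52-fold (log2 fold change -0.60, SE 0.18, edgeR adjusted p = 0.0225), only just past the fold cutoff. With the length correction (-0.58) and with limma on unfiltered log2(FPKM + 1) (-0.29) it passed the test but not the fold cutoff, and so was not called. It did not pass the test with the replicate number as a block (adjusted p = 0.0506), with DESeq2 (0.0618), with glmTreat (0.650), with the least-squares length correction (0.0568), or without Tespa1+/+ replicate 1 (0.0623), Tespa1+/+ replicate 3 (0.0655) or Tespa1-/- replicate 3 (0.0510); adjusted p ranged from 0.0121 to 0.650.

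Relative to Myc, per kilobase of union exon length, Mycn stood at 5.81, 5.39 and 4.73% in Tespa1+/+ libraries, against 0.914, 0.987 and 0.756% in Tespa1-/- ones. Each Tespa1-/- library was below each Tespa1+/+ library by this measure too. This ratio is a description and was not tested.

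Max, the dimerization partner of MYC, MXD, MNT and MGA proteins (ENSMUSG00000059436, chr12:76937269-76962201, minus strand), was the one gene of the set to rise. Its levels were 99.0, 100.4 and 95.9 CPM in Tespa1+/+ and 116.5, 115.6 and 113.5 CPM in Tespa1-/- libraries, without overlap. The increase was small but well beyond the replicate spread, at 1.17-fold (log2 fold change 0.23, SE 0.04, edgeR adjusted p = 0.00105; 0.19 with the length correction). Its size depended on the processing, with values from 0.12 to 0.30 over the 18 alternatives.

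Mnt, a broadly expressed MAX-binding repressor regarded as the main antagonist of MYC (ENSMUSG00000000282, chr11:74830920-74845725, plus strand), fell clearly. It was at 78.3, 86.6 and 83.4 CPM in Tespa1+/+ and 49.7, 46.5 and 45.9 CPM in Tespa1-/- libraries. The groups were well separated and the decrease was 1.75-fold (log2 fold change -0.81 with an SE of 0.06; edgeR adjusted p = 1.84e-05). The length correction left it at -0.72, and it passed the test under each of 18 alternatives (-0.91 to -0.63).

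Mga, a very large MAX partner that recruits a Polycomb complex (ENSMUSG00000033943, chr2:119897228-119969581, plus strand, 15340 bases of union exon), was lower but uneven between replicates. Tespa1+/+ libraries had 133.9, 99.3 and 103.5 CPM, and Tespa1-/- libraries had 38.0, 71.7 and 39.2 CPM. Tespa1-/- replicate 2 lay well above the other two, yet below every Tespa1+/+ library. The mean fell 2.26-fold (log2 fold change -1.18, SE 0.25, edgeR adjusted p = 0.00514), and without that replicate the value was -1.53 (adjusted p = 0.00024; 0.00024 to 0.164 over the alternatives). With the length correction it was -0.52 and did not pass the test (adjusted p = 0.118; least-squares correction 0.164), nor did it pass glmTreat against a fold of 1.5 (0.0515).

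Mxd4, a repressor of the MXD group found in differentiating and resting cells (ENSMUSG00000037235, chr5:34173883-34187720, minus strand), did not pass the test although its groups did not overlap. Levels were 74.3, 77.5 and 74.1 CPM in Tespa1+/+ and 36.7, 65.9 and 64.1 CPM in Tespa1-/- libraries. The low value of Tespa1-/- replicate 1 set the spread, a range of 0.84 on the log2 scale at the 97.5th percentile of genes. With all libraries the log2 fold change was -0.44 (SE 0.20, edgeR adjusted p = 0.0919). Without Tespa1-/- replicate 1 it was -0.21 (adjusted p = 0.0112; 0.0112 to 1.0 over the alternatives), with scaling by total counts -0.54 (0.0490), and with the length correction -0.06. The gene shares 514 exon bases with Gm42846, which had at most 3 counts.

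Mxd1, the MXD member induced as myeloid cells mature (ENSMUSG00000001156, chr6:86647042-86669161, minus strand), was at 35.5, 36.9 and 36.4 CPM in Tespa1+/+ and 30.6, 33.3 and 31.0 CPM in Tespa1-/- libraries. It fell 1.15-fold (log2 fold change -0.20, SE 0.06, edgeR adjusted p = 0.0181), with no overlap of the groups. The direction turned to 0.10 with the length correction (adjusted p = 0.186; 0.00287 to 1.0 over the alternatives) and to 0.19 with its least-squares form (0.0261), so it depended on how length was treated. It also did not pass the test with no filter on low counts (0.0633), DESeq2 (0.0866) or glmTreat (1.0), or without Tespa1+/+ replicate 2 (0.0718), Tespa1+/+ replicate 3 (0.0595), Tespa1-/- replicate 1 (0.0636) or Tespa1-/- replicate 3 (0.0600). Neutrophil genes rose in the same libraries, as given above.

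**Figure D3:**
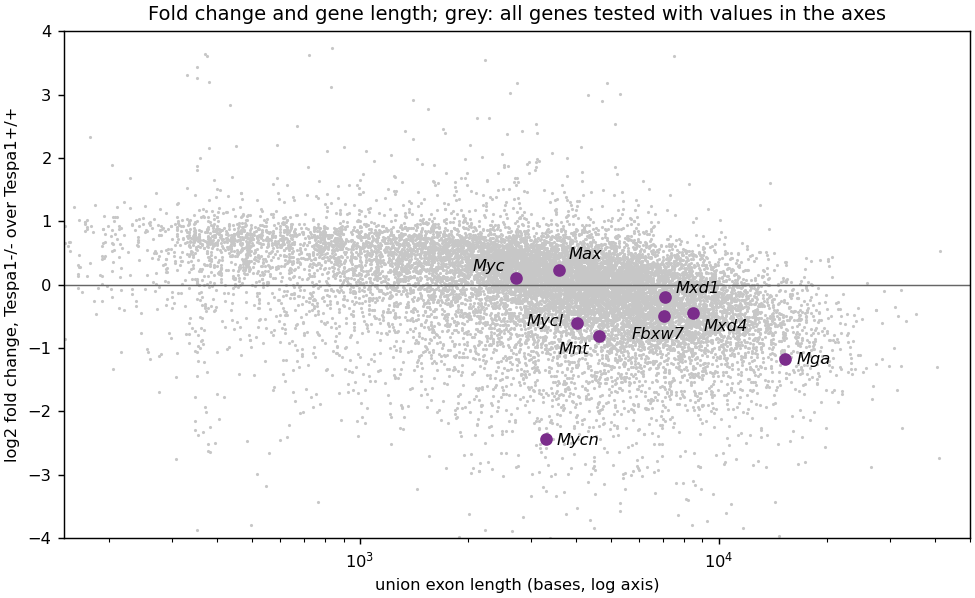
Log2 fold change of Tespa1-/- over Tespa1+/+ against union exon length (bases, log axis), with all genes tested in grey and the 9 tested MYC network genes in purple. Mga, at 15340 bases, lies in the long range where grey points fall below 0, whereas Mycn lies below most genes of its own length.

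RefSeq promoter windows (GRCm38.p6, 250 bases before to 50 after the annotated start) were matched by symbol for 9 of the genes, in 12 windows. No window was found for Myc, so its promoter was not searched. They were searched for the E-box CACGTG that MYC-MAX and its antagonists bind, which reads the same on both strands. It occurred in 3 windows, those of Mxd4, Mnt and Max, and in 7.2% of all 32851 windows. The stretches around it are shown because these genes are themselves MAX or MAX partners. The E-box is in capitals, and the Max stretch ends with it because it spans the RefSeq start site. That start lies outside the gene coordinates given above for Max.
Max, chr12:76962246-76962281, minus strand: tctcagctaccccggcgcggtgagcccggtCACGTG
Mnt, chr11:74830771-74830836, plus strand: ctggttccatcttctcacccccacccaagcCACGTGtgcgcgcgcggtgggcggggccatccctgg
Mxd4, chr5:34187894-34187959, minus strand: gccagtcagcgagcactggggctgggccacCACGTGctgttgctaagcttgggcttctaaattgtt
Counted from the start site, the first base of the E-box was at -3 in Max, -123 in Mnt and -219 in Mxd4. Of these genes Max rose, Mnt fell and Mxd4 did not pass the test, so the element went with no common direction. A match of letters is a description and not evidence of binding, and the windows of the other 6 genes without these letters say nothing of the factors.

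The make-up of MAX partner transcripts was described as the share of each gene in the sum over Myc, Mycn, Mycl, Mxd1, Mxi1, Mxd3, Mxd4, Mnt and Mga, from the deposited FPKM, a unit that divides by gene length but leaves the relation of fold change with length in place. MYC family transcripts together made up 41.8, 41.3 and 47.6% of the sum in Tespa1+/+ libraries, against 54.3, 53.2 and 51.0% in Tespa1-/- ones. The groups did not overlap, with means of 43.6 ± 3.49 and 52.8 ± 1.67%, a difference of 9.25 percentage points. On CPM per kilobase of union exon length the means were 62.3 ± 3.48 and 71.2 ± 1.23%, a difference of 8.88 points, and leaving out each library in turn gave 8.12 to 11.3 points on FPKM. With the length correction, however, the share was 63.9, 63.3 and 69.1% against 69.7, 68.2 and 67.0%. The groups then overlapped, and the difference came to 2.90 points, within the spread of the Tespa1+/+ libraries (65.4 ± 3.18 and 68.3 ± 1.38%).

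The parts of that sum differed in direction. By FPKM without the length correction, Myc went from 38.8 ± 3.51 to 51.0 ± 1.37% although its own level overlapped between groups, while Mnt went from 23.4 ± 1.34 to 16.4 ± 1.79% and Mga from 6.60 ± 1.39 to 3.49 ± 1.04%. Mycn went from 3.52 ± 0.131 to 0.777 ± 0.119%. With the length correction, per kilobase of union exon, Myc went from 61.3 ± 3.33 to 67.0 ± 1.20%, Mnt from 13.9 ± 1.14 to 9.43 ± 1.03% and Mycn from 3.17 ± 0.175 to 0.610 ± 0.0867%, while Mga at 4.68 ± 1.01 and 3.56 ± 1.07% overlapped between groups. These shares were not tested, since they sum over chosen genes.

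**Figure D4:**
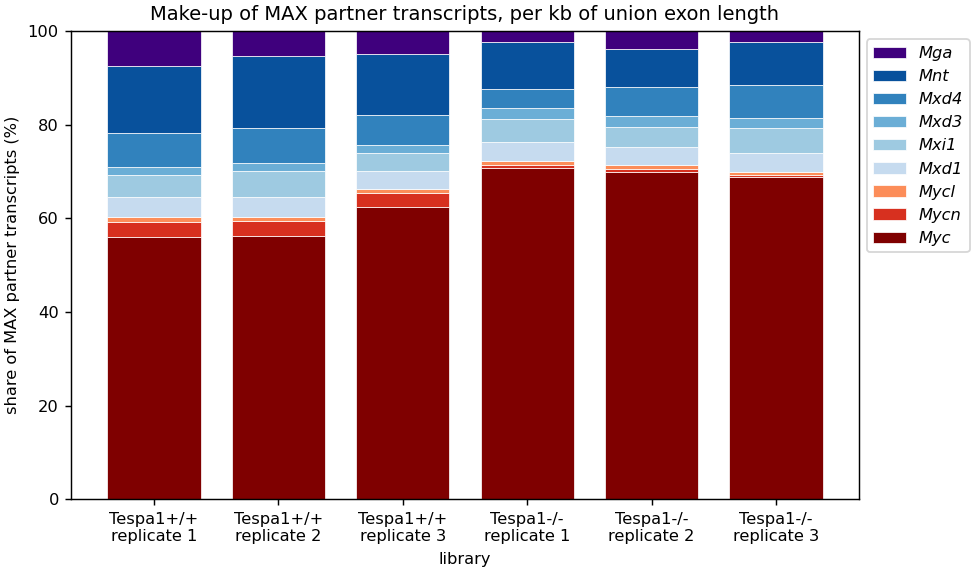
Share (%) of each of 9 genes in the summed MAX partner transcripts per library, on CPM per kilobase of union exon length and without the length correction, with the MYC family in red and repressors in blue and violet. Myc fills 56.0 to 62.4% of the Tespa1+/+ bars and 68.8 to 70.8% of the Tespa1-/- bars, and the Mycn band narrows from between 2.96 and 3.25% to between 0.520 and 0.690%.

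By level per kilobase (CPM per kilobase of union exon length), the order in Tespa1+/+ cells was Myc at 73.7 ± 10.8, Max at 27.3 ± 0.642, Mnt at 17.9 ± 0.905, Mxd4 at 8.88 ± 0.224, Mga at 7.32 ± 1.23, Mxd1 at 5.13 ± 0.104, Mycn at 3.88 ± 0.187, Fbxw7 at 2.63 ± 0.0263, Mycl at 1.19 ± 0.135 and Skp2 at 0.0229 ± 0.0137. In Tespa1-/- cells Mycn dropped below Fbxw7 and lay beside Mycl, at 0.705 ± 0.147 against 0.770 ± 0.167, a difference within the spread. Mga at 3.24 ± 1.25 lay below Mxd1 at 4.47 ± 0.211, again within the spread of Mga.

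Fbxw7, the F-box protein that recognises phosphorylated MYC (ENSMUSG00000028086, chr3:84815268-84979198, plus strand), was at 18.8, 18.4 and 18.5 CPM in Tespa1+/+ and 14.3, 13.2 and 11.9 CPM in Tespa1-/- libraries. The groups did not overlap and the decrease was 1.41-fold, below the fold cutoff (log2 fold change -0.50, SE 0.08, edgeR adjusted p = 0.00156). With the length correction the value was -0.20 and did not pass the test (adjusted p = 0.0735; least-squares correction -0.12, 0.265; 0.000603 to 1.0 over the alternatives, glmTreat giving the last).

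Skp2, the F-box protein that couples MYC turnover to the cell cycle (ENSMUSG00000054115, chr15:9111985-9155425, minus strand), was barely detected. It had 5, 2 and 3 counts in Tespa1+/+ and 4, 1 and 3 in Tespa1-/- libraries, at or near the floor of 3 counts, failed the filter and was not tested. Whether so few counts reflect little Skp2 transcript or the way reads were counted was not tested. The SKP2 cofactor gene Cks1b was at 100.1 ± 2.62 CPM in Tespa1+/+ libraries. It was called higher, at 175.2 ± 1.93 CPM in Tespa1-/- libraries (log2 fold change 0.81, SE 0.03, edgeR adjusted p = 2.58e-06).

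Other genes of the pathway were taken from lists written from general knowledge. Of 32 further genes of MYC turnover 30 were tested, and 12 rose, 11 fell and 7 did neither, with a median log2 fold change of 0.04. Over all genes tested 31.5% rose and 31.8% fell, and 14.0% were called higher and 19.2% lower. With the length correction 14 of the 30 rose and 5 fell (median 0.10), against 29.8% and 26.7% of all genes. Called higher without the correction, besides Cks1b, were the mitotic kinases Plk1 (0.66) and Aurka (0.61) and the COP9 signalosome subunits Cops5 (0.61) and Cops6 (0.60). Cops6 was at 99.9, 100.4 and 102.5 CPM in Tespa1+/+ and 154.6, 155.5 and 148.9 CPM in Tespa1-/- libraries, without overlap (edgeR adjusted p = 8.12e-06; 0.43 with the length correction). It shares 64 exon bases with the strongly expressed Mcm7, so its reads may not be fully its own if counting ignored strand.

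Called lower among the turnover genes were the ligase Huwe1 and the deubiquitinases Usp28 (-0.64) and Usp22 (-0.59). Huwe1, a very long gene of 23507 bases of union exon, was at 800.9, 807.7 and 805.3 CPM in Tespa1+/+ and 303.9, 302.7 and 304.4 CPM in Tespa1-/- libraries. Its range among Tespa1-/- libraries was at the 0.402th percentile of genes. The log2 fold change was -1.41 (SE 0.02, edgeR adjusted p = 9.23e-08), which came to -0.62 with the length correction and still passed the test. Of the turnover genes named as called, Cops5 (0.59) and Huwe1 stayed past the fold cutoff with the length correction. Cks1b (0.45), Plk1 (0.45), Aurka (0.44), Cops6, Usp28 (-0.45) and Usp22 (-0.48) passed the test alone with it. Rbx1 rose but was not called without the correction (0.53), and was called higher with it (0.60, edgeR adjusted p = 9.23e-05). Of the 30 turnover genes 2 were then called higher and 1 lower, against 1229 and 2344 of 15314 genes. USP28 is known to counteract FBXW7, and both transcripts fell without the length correction. With it Usp28 still passed the test, and Fbxw7 did not (-0.20, edgeR adjusted p = 0.0735).

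Of the 5 other genes of the MAX and MLX network 4 were tested (median 0.10). Mlxip, which encodes the glucose-sensing MLX partner MondoA, was called lower, at 144.4, 140.5 and 146.7 CPM in Tespa1+/+ and 53.0, 48.9 and 54.3 CPM in Tespa1-/- libraries (log2 fold change -1.47 with an SE of 0.05; edgeR adjusted p = 1.33e-06). The decrease remained at -1.09 with the length correction. Mxi1 (-0.12), Mxd3 (0.32) and Mlx (0.43) did not pass the test.

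Among 18 cofactors of MYC and MXD proteins 6 rose, 7 fell and 5 did neither (median 0.01). The shares of all genes were 31.5% risen and 31.8% fallen, and 14.0% called higher and 19.2% called lower. With the length correction 9 of the cofactors rose and 2 fell (median 0.09), against 29.8% and 26.7% of all genes. Called lower without the correction were Trrap and Ep400, scaffolds of histone acetyltransferase and remodelling complexes, and Hcfc1, a MYC-binding host cell factor. Their log2 fold changes were -1.17, -1.17 and -1.06, and -0.41, -0.56 and -0.68 with the length correction. Ep400 was at 419.6, 437.2 and 426.8 CPM in Tespa1+/+ and 119.7, 229.8 and 221.7 CPM in Tespa1-/- libraries, with Tespa1-/- replicate 1 low as it was for Mxd4, and did not pass the test with the length correction (adjusted p = 0.0692). Ruvbl2, a small ATPase subunit of the same complexes, was called higher (0.65; 0.53 with the length correction). Only Hcfc1 of these genes stayed past both the test and the fold cutoff with that correction. Of all 18 cofactors 1 was then called higher, which was not Ruvbl2, and 1 lower. Of the 7 partners of MGA in its Polycomb complex 2 fell, against 31.8% of all genes. They were E2f6 (-0.46, corrected -0.27) and Rnf2 (-0.18, corrected -0.15). None of the partners was called (median -0.17, or 0.04 with the length correction).

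**Figure D5:**
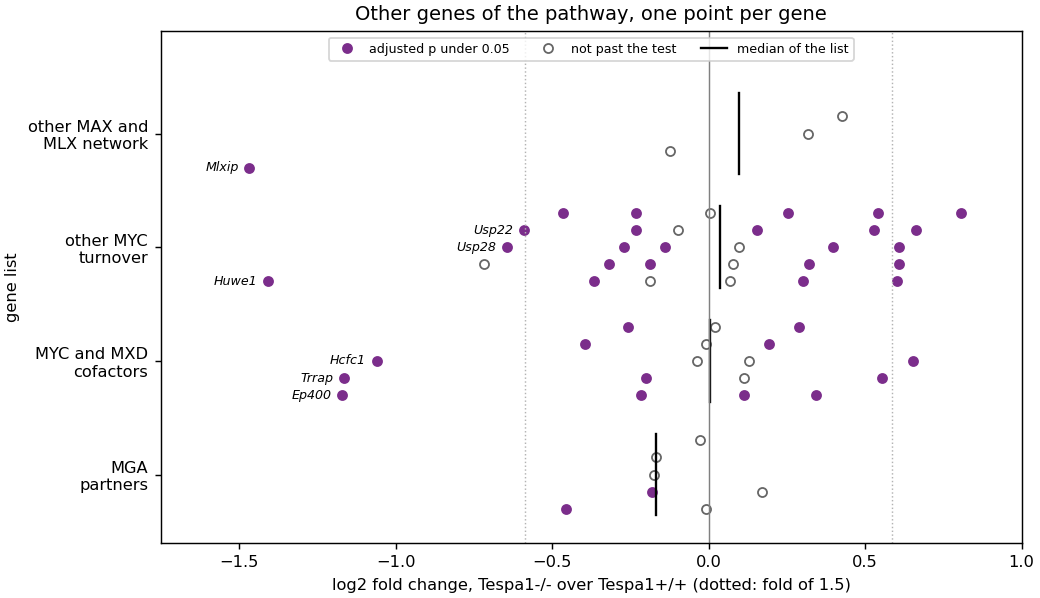
Log2 fold change, Tespa1-/- over Tespa1+/+, of the tested genes of 4 other lists of the pathway, one point per gene, filled where the adjusted p was under 0.05; values are without the length correction, vertical bars are list medians and dotted lines a fold of 1.5. The genes called lower are named, and the medians lie between -0.17 and 0.10.

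Core targets of MYC in ribosome production and metabolism were mostly higher in Tespa1-/- cells, where Mycn was lower and Myc not past the test. Of 25 genes 18 rose, 3 fell and 4 did neither, with a median log2 fold change of 0.46 against -0.00 for all genes. Of all genes tested 31.5% rose and 31.8% fell. The most abundant were the nucleolar genes Ncl (2201 ± 72.5 to 2945 ± 55.5 CPM) and Npm1 (893.9 ± 36.7 to 1428 ± 205 CPM), which rose, as did the glycolytic gene Ldha (609.4 ± 10.3 to 1022 ± 12.3 CPM). With the length correction 20 rose and 1 fell, against 29.8% and 26.7% of all genes, with a median of 0.44. Of 10 proliferation genes 5 rose, 3 fell and 2 did neither (2705 to 2734 CPM summed in Tespa1+/+, 2372 to 2400 in Tespa1-/- libraries). Their median log2 fold change was 0.22, so the sum and the median went in opposite directions. With the length correction 6 of them rose and 1 fell, with a median of 0.14.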

How the data were processed

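RNA of LSK cells from 3 Tespa1+/+ and 3 Tespa1-/- samples from irradiated mice had been sequenced as poly-A selected, stranded, paired-end libraries. The authors deposited 1 table of 55487 genes with raw counts and FPKM values (counts scaled by gene length and library total) for each sample. The submitters' processing notes name CASAVA 1.8, HISAT2, StringTie and edgeR and the build GRCm38. The counting program and its strand setting are not given in the sources used here.

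The 10 genes and all lists were chosen with earlier results of these data known. Groups came from the sample titles. Counts were filtered with filterByExpr, scaled by TMM and tested with the quasi-likelihood F-test of edgeR 4.0.16 (R 4.3.3), with Benjamini-Hochberg adjustment over 15332 genes. CPM are TMM-scaled. The common biological coefficient of variation was 0.11. Named were all 10 genes, Tespa1, called genes of the 4 pathway lists, Cops6 and Huwe1, up to 3 most abundant genes of other lists, and the 3 genes most like Myc. Also named were the sort markers Kit and Ly6a and the uncalled list genes Mxi1, Mxd3, Mlx, E2f6 and Rnf2. Nadk2 and Lmbrd2 were named as neighbours of Skp2, and Gm42846 and Mcm7 for shared exon bases. Gsk3b, Cbx3 and Rbx1 were chosen after their values were seen. Alternatives used DESeq2 1.42.0 and limma 3.58.1 (log2 FPKM with pseudocounts of 1 and 0.1). The length correction fitted a robust loess (span 0.5) on union exon length from GENCODE, whose gene coordinates were identical for 54784 of 55487 genes. The FPKM of Myc implied a length of 8315 bases against 2717 of union exon, so levels are also given per kilobase of union exon. The list of cofactors leaves out 1 gene that is not reported here. The fits were tested on simulated data. Precision is limited by 3 libraries per group, and by counting for the low genes Mycn, Mycl and Skp2.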

Additional observations from a re-analysis of the deposited data

How the results depend on the processing

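Mycn, Mnt and Max kept their direction under each of 18 alternatives, and Mycn and Mnt their call; Max, never called, passed the test under all but glmTreat. The 4 genes called lower became 2 under glmTreat against a fold of 1.5, 2 with the length correction and 2 with its least-squares form (added after seeing the data), 3 with DESeq2, 5 with total counts and 6 with no fold cutoff. Genes called higher were 1 with no fold cutoff and 0 otherwise. Leaving out each library gave 3 to 4 lower and 0 higher. With the length correction 2344 of 15314 genes were called lower over all genes. Mxd1 turned from -0.20 to 0.10 with the length correction and 0.19 with its least-squares form; the cause was not tested. Over all genes, 2148 were called higher and 2951 lower; the counts were 1020 and 1807 with glmTreat, 1070 and 1626 with limma on log2(FPKM + 1), 1090 and 1716 without its filter, 1365 higher with log2(FPKM + 0.1), 1229 higher with the length correction, 4832 and 4871 with no fold cutoff, 2078 to 2246 and 2716 to 2885 without one library. The MYC family share differed by 2.90 percentage points with the length correction (added after seeing the data) against 9.25 without. Total counts moved the median of all genes by -0.10 and gave 1491 and 3516. Same-numbered replicates did not deviate together (correlations 0.0459, 0.0107 and 0.0595), so no pairing by number was visible. The sources used here do not say if the samples were paired. With the replicate number as a replicate block, 3 genes were called lower and 0 higher, Mycl being lost. Mycl was not tested in the filtered FPKM fits.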

Other observations

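The neighbours of Skp2 on chromosome 15 were low as well. Nadk2 had 31, 33 and 18 counts in Tespa1+/+ and 25, 17 and 10 in Tespa1-/- libraries, and Lmbrd2 had 67, 94 and 40 against 80, 51 and 59. Both overlapped between groups and neither passed the test without the length correction. With it Lmbrd2 passed the test and the fold cutoff (log2 fold change 0.86, edgeR adjusted p = 0.00469), and Nadk2 passed neither (-0.02).

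Replicates of some MYC pathway genes spread widely in Tespa1-/- libraries. Tespa1-/- replicate 1 was the lowest of its group for Mxd4, Ep400 and Mga, as given above, though for Mga replicate 3 was nearly as low. The glycogen synthase kinase gene Gsk3b, chosen after its values were seen, whose product phosphorylates MYC at a site read by FBXW7, was at 71.8, 75.4 and 71.8 CPM in Tespa1+/+ and 24.7, 65.5 and 43.4 CPM in Tespa1-/- libraries (log2 fold change -0.72 with an SE of 0.30; edgeR adjusted p = 0.0705; -0.26 with the length correction). The heterochromatin gene Cbx3, a partner of MGA chosen in the same way, was at 144.4, 79.9 and 135.6 CPM against 71.7, 170.7 and 75.5 CPM, so that replicate 2 stood apart in both groups and in opposite directions (adjusted p = 0.705). Over 9699 genes the median range of log2 CPM was 0.12 in Tespa1+/+ and 0.13 in Tespa1-/- libraries. The cause of these spreads was not tested.

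Markers of other lineages were mostly low. T cell genes summed to 15.4 to 16.8 CPM in Tespa1+/+ and 8.13 to 9.10 CPM in Tespa1-/- libraries, with all 3 tested genes fallen. B cell genes summed to 47.7 to 51.2 against 34.8 to 38.6 CPM (4 of 5 tested fell, 1 rose). Erythroid genes summed to 18.3 to 18.5 against 32.3 to 34.8 CPM (3 rose and 2 fell). Of 6 monocyte and macrophage genes 4 fell and 2 did neither, with sums of 669 to 685 against 553 to 586 CPM. The shares of all genes tested were 31.5% risen and 31.8% fallen.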
